A study of Mus musculus with 16 samples.

Results

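The proximal T cell receptor (TCR) signalling chain was described through 9 genes, chosen by name: the kinases Lck, Fyn and Zap70, the adaptors Lat, Lcp2, Fyb and Skap1, and the effectors Vav1 and Plcg1. They were 9 of 55536 annotated genes, and all 9 were among the 16650 genes with enough counts to be tested. Their 68 annotated transcripts and 182 splicing nodes (a node is a stretch of a gene that is spliced in or out as a unit) of 125520 in the series were examined as well. The cells were CD8+ T cells of OT-I mice, whose transgenic receptor recognises the ovalbumin peptide SIINFEKL. They had been electroporated with Cas9 and either a control guide or a guide against Tardbp, the gene of the RNA-binding protein TDP-43. All of them were transferred into C57BL/6J mice, which received the antigen with the costimulatory antibodies anti-OX40 and anti-41BB, and were collected from spleen and lymph nodes, on day 4 by the labels and somewhat earlier by the study's text. The 8 libraries of each group, called Control gRNA and Tardbp gRNA, came from edited populations and not from clones, and the control cells carried Cas9 and met antigen and costimulation too.

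In a T cell, Lck phosphorylates the receptor tails, Zap70 docks there and phosphorylates the membrane adaptor LAT and the cytosolic adaptor SLP-76, which Lcp2 encodes. LAT and SLP-76 then gather the exchange factor Vav1 and phospholipase C gamma 1, which open the routes to actin, calcium and Ras. ADAP, the product of Fyb, binds SLP-76 and Fyn, is held together with SKAP55 (Skap1), and links the receptor to integrin adhesion. Several of these genes are also alternatively spliced, which is why exons are shown here beside gene levels.

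Psi, the fraction of a gene's transcripts estimated to carry a node, differed between the groups by more than 0.1 at only 2 of the members' 182 nodes, and both were coding exons. The Vav1 exon lies at chr17:57311784-57311900 of GRCm38 on the plus strand and is exon 23 of 27 of Vav1-201, a full-length transcript. The Fyb exon lies at chr15:6644762-6644899 on the plus strand and is exon 11 of 18 of Fyb-201. A pair of mutually exclusive Fyn exons is shown as well, because they define the forms of the kinase known from brain and from T cells, at chr10:39529437-39529601 and chr10:39529919-39530074, both on the plus strand. The sequences below are those of the GENCODE M21 transcripts, written 5′ to 3′. In the Vav1 and Fyb exons, capitals mark the bases of codons that are split between this exon and its neighbours. In the Fyn exons, capitals mark the bases that are identical in the last 36 bases when the pair is lined up from the 3′ ends.
Vav1 exon: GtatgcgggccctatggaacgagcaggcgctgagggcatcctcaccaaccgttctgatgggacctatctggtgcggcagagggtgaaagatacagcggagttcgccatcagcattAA
Fyb exon: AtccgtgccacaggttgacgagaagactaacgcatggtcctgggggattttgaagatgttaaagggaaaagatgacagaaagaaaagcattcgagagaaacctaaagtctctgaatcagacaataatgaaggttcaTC
Fyn exon, brain form: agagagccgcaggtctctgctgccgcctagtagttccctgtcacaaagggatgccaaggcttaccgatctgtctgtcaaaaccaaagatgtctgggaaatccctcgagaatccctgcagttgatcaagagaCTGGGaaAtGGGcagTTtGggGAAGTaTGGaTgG
Fyn exon, T cell form: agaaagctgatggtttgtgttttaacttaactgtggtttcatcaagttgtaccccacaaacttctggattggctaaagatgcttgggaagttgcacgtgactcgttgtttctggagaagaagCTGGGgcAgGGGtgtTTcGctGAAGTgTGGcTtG

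The Vav1 exon has 117 bases and the Fyb exon 138, so each can be left out without shifting the reading frame. They span codons 671 to 710 of 845 in Vav1-201 and codons 626 to 672 of 819 in Fyb-201. The Vav1 stretch opens the SH2 domain, the module with which Vav1 docks on phosphotyrosine, and the Fyb exon separates a shorter from a longer form of ADAP. The Fyn exons have 165 and 156 bases and are alike mainly near the 3′ end, where 22 of 36 bases were identical. TDP-43 is known to bind UG repeats, and GTGTGT on the transcribed strand was found in none of the 4 exons. It was present in 3.5% of 53084 core exons (exons inside a gene that are spliced in or out whole) of 100 to 200 bases, and a search of exons says nothing about the introns beside them, which were not analysed here.

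The targeted gene was lower in the edited cells. Tardbp ranged from 171.8 to 206.9 CPM (counts scaled to library size) in Control gRNA, with a median of 198.4, and from 110.4 to 147.2 with a median of 136.4 in Tardbp gRNA. The groups did not overlap, and the log2 fold change was -0.51 (SE 0.0558, edgeR quasi-likelihood test, adjusted p = 8.07e-07, n = 8 per group). The transcript left over, 70.1% of the control mean, does not tell how much protein remained. From an immunoblot of pooled cells, the study reports that cells given the Tardbp guide did not make the protein. All 7 markers of CD8 T cells tested, the receptor chains Cd3d, Cd3e, Cd3g, Cd247 and Trac and the coreceptors Cd8a and Cd8b1, passed the test as higher in Tardbp gRNA, with a median log2 fold change of 0.62. Cd4 had a mean of 0.23 CPM in Control gRNA, beside 0.22 CPM in Tardbp gRNA. Control gRNA libraries held 73649630 to 93893357 estimated counts each, Tardbp gRNA libraries 56016533 to 94801105. The deposited RNA concentration, which has no stated unit, lay between 34.9 and 197.1 for Control gRNA and between 10.1 and 24 for Tardbp gRNA, without overlap. RNA concentration and guide therefore cannot be told apart in these libraries. Summed red cell markers lay between 0.442 and 17.2 CPM in Control gRNA and between 9.02 and 181 CPM in Tardbp gRNA, myeloid markers 4.85 to 29.4 and 13.5 to 75.2 CPM, and NK cell markers 12.6 to 63.4 and 36.9 to 101 CPM. All 4 red cell markers tested, Hba-a1, Hba-a2, Hbb-bs and Hbb-bt, passed as higher, with log2 fold changes of 2.78 to 2.94. Of the 5 myeloid markers tested, Lyz2 and S100a8 passed as higher and Csf1r, Adgre1 and S100a9 did not pass. The NK cell sum was mostly Eomes, which activated CD8 T cells also express (mean 26.1 and 54.2 CPM, called higher), while Ncr1 (0.774 and 1.14 CPM) and Klrb1c (0.723 and 1.32 CPM) did not pass. Summed B cell markers were 374 to 460 and 541 to 708 CPM, nearly all from Ighm, while Cd79a had a mean of 0.659 and 1.22 CPM and Pax5 was at 0 in every Tardbp gRNA library. CD4 T cell markers summed to 4.39 to 20.7 and 6.15 to 15.6 CPM. The part of these cells and of RNA concentration in the results was not tested beyond the fits given here.

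At the gene level, 5 of the 9 members passed the test as higher in Tardbp gRNA (Lat, Skap1, Fyb, Zap70 and Lck), 1 as lower (Vav1), and 3 did not pass (Fyn, Plcg1 and Lcp2). Of all genes tested, 46.7% were called in either direction, 23.5% as higher and 23.3% as lower, so a call by itself was common here. None of the members changed by more than 1 on the log2 scale, and their median log2 fold change was 0.26, beside 0.05 over all genes tested. For 2 of the 9, Lat and Vav1, the groups did not overlap, as was the case for 16.9% of all genes. In RNA from sorted cells in bulk, fewer cells of a type and less RNA per cell cannot be told apart.

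**Figure D1:**
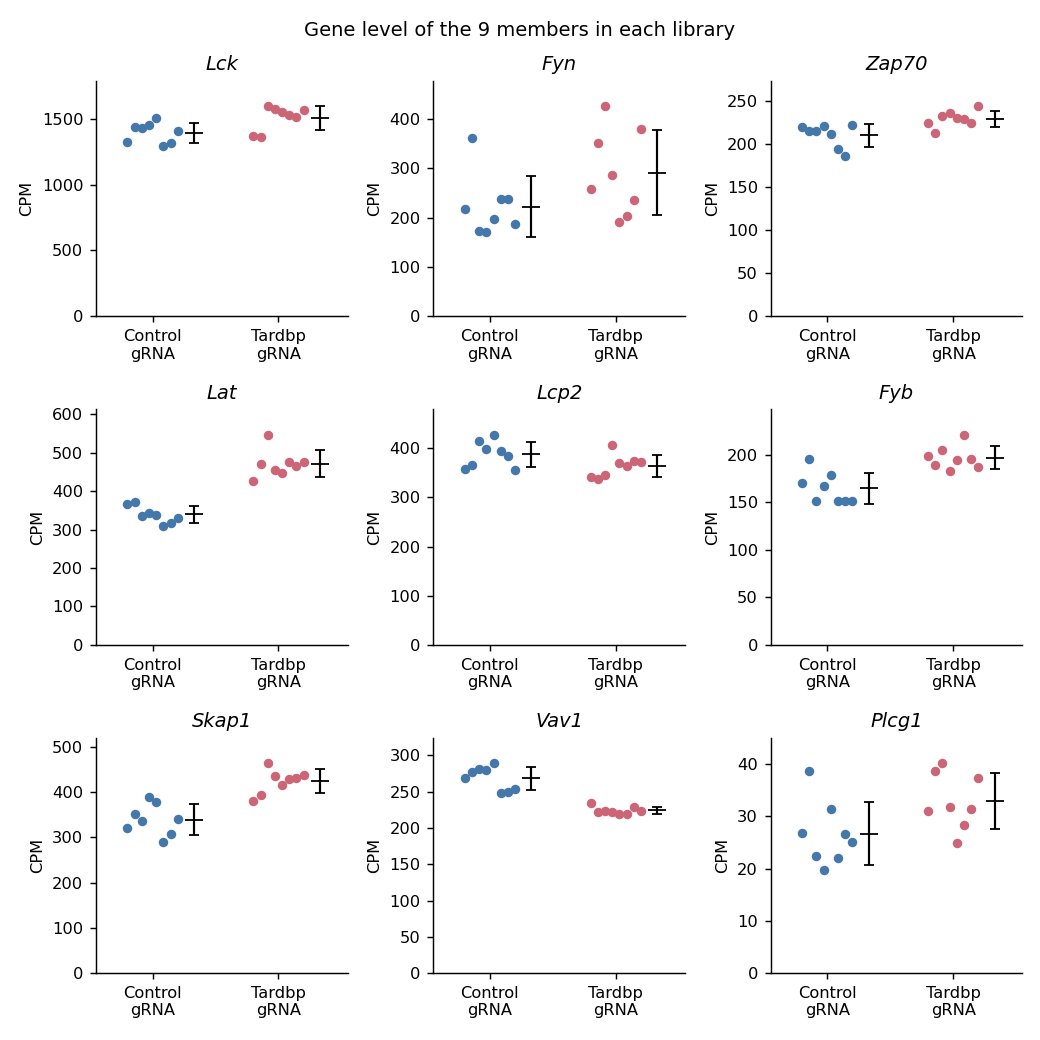
Gene level of each member in CPM (y axis, from 0) in each of the 8 Control gRNA (blue) and 8 Tardbp gRNA (red) libraries. Points are libraries in the order of their numbers, and the black mark and bar are the mean and SD. Lat in Tardbp gRNA lies wholly above Control gRNA and Vav1 wholly below, while Fyn and Plcg1 spread widely in both groups.

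Compared per length, in TPM (counts scaled to transcript length and library size) summed over a gene's transcripts, Lck stood highest in Control gRNA at 1121 ± 75 TPM (SD, n = 8). Lat followed at 449.9 ± 26.5 TPM and Skap1 at 395.9 ± 40.9 TPM, with overlapping libraries. Lcp2, Fyb, Vav1 and Zap70 formed a band from 177.6 down to 154.8 TPM in which each gene overlapped the next, and Fyn at 107.9 ± 34.4 TPM overlapped Zap70. Plcg1 was far below the others at 9.11 ± 2.05 TPM.

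Lck, the kinase that starts the chain, ranged from 1291 to 1503 CPM in Control gRNA (median 1417) and from 1359 to 1593 CPM in Tardbp gRNA (median 1536). In 6 of 8 Tardbp gRNA libraries the level was above that of every control library, and the other 2 lay among the controls. Its log2 fold change was 0.11 (SE 0.0422, edgeR adjusted p = 0.0373). This call was lost in 12 of 16 fits that left out 1 library, with adjusted p up to 0.178. It was also lost with RNA concentration as a covariate (edgeR adjusted p = 0.589), a fit that cannot separate concentration from the guide.

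Zap70, the kinase that relays the signal from the receptor tails, ranged from 185.5 to 221.3 CPM in Control gRNA (median 214.5) and from 212.8 to 243.5 CPM in Tardbp gRNA (median 229.4). Here 7 of 8 Tardbp gRNA libraries lay above all controls. Zap70 had a log2 fold change of 0.12 (edgeR, SE 0.041, adjusted p = 0.0191), and 7 of 16 fits without 1 library lost the call, with adjusted p up to 0.122. With RNA concentration as a covariate, which that fit cannot separate from the guide, the edgeR adjusted p was 0.567.

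Fyn, the second Src family kinase of the chain and a partner of ADAP, was the most variable member together with Plcg1. It ranged from 170 to 360.7 CPM in Control gRNA (median 206.8) and from 191.1 to 424.8 CPM in Tardbp gRNA (median 271.9). The highest control library, number 2, lay above 6 of the 8 Tardbp gRNA libraries. For Fyn the log2 fold change was 0.39 with a 95% interval from 0.0432 to 0.734 and did not pass (edgeR adjusted p = 0.0792). Without Control gRNA replicate 2 it was 0.52 with an adjusted p of 0.0111.

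Lat, the membrane scaffold that Zap70 phosphorylates, showed the widest called difference among the members. It ranged from 309.9 to 371.3 CPM in Control gRNA (median 336.5) and from 426.2 to 546.3 CPM in Tardbp gRNA (median 468.5). All 8 Tardbp gRNA libraries were above all 8 controls, a pattern shared by 6.61% of all genes. This gave a log2 fold change of 0.47 (edgeR, SE 0.0486, adjusted p = 4.64e-07), and 31.6% of tested genes had one of larger size in either direction. The call held in all 16 fits without 1 library.

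Lcp2, which encodes SLP-76, the scaffold downstream of LAT, ranged from 356.7 to 427.5 CPM in Control gRNA (median 389.3) and from 338.1 to 407.2 CPM in Tardbp gRNA (median 367.2). The groups overlapped over most of their range. The log2 fold change was -0.09 with a 95% interval from -0.18 to 0.00108 (edgeR adjusted p = 0.122). Lcp2 passed in 4 of 16 fits without 1 library, that is without Control gRNA replicate 1 or 8 or Tardbp gRNA replicate 4 or 8, with adjusted p down to 0.0118.

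Fyb ranged from 151.2 to 195.9 CPM in Control gRNA (median 159.6) and from 182.9 to 221.3 CPM in Tardbp gRNA (median 195). The highest controls were numbers 2 and 5, and only 3 Tardbp gRNA libraries exceeded all controls. Fyb had a log2 fold change of 0.26 (edgeR, SE 0.0569, adjusted p = 0.00113) and passed in all 16 fits without 1 library.

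Skap1, whose product SKAP55 accompanies ADAP, moved in the same direction. It ranged from 290.5 to 389.3 CPM in Control gRNA (median 338.7) and from 380.7 to 463.9 CPM in Tardbp gRNA (median 430.5). In 7 of 8 Tardbp gRNA libraries the level exceeded every control. Its log2 fold change was 0.32 (SE 0.0571, edgeR adjusted p = 1.5e-04), and it passed in all 16 fits without 1 library. With RNA concentration as a covariate, in a fit that cannot separate it from the guide, the edgeR adjusted p was 0.114.

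Vav1, the guanine nucleotide exchange factor of the chain, was the only member called lower. It ranged from 248.4 to 289.3 CPM in Control gRNA (median 273) and from 219.1 to 235.2 CPM in Tardbp gRNA (median 222.9). All 8 Tardbp gRNA libraries lay below all 8 controls, a pattern shared by 10.3% of all genes, and they were tightly grouped. The log2 fold change was -0.26 (SE 0.0366, edgeR adjusted p = 1.37e-05). Vav1 was the one member called under all 8 other settings and in all 16 fits without 1 library.

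Plcg1, the phospholipase that makes the second messengers for calcium and protein kinase C, ranged from 19.79 to 38.56 CPM in Control gRNA (median 25.9) and from 24.84 to 40.09 CPM in Tardbp gRNA (median 31.59). The highest control library, again number 2, lay above 7 of the 8 Tardbp gRNA libraries. Plcg1 had a log2 fold change of 0.31 with a 95% interval from 0.0592 to 0.554 (edgeR adjusted p = 0.0544). It passed with DESeq2 (adjusted p = 0.0352) and in 3 of 16 fits without 1 library, and without Control gRNA replicate 2 the log2 fold change was 0.40 (adjusted p = 0.00632).

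On the second principal component of log2 CPM over all tested genes, with 8.6% of the variance, the libraries numbered 1 to 3 of both groups separated from those numbered 4 to 8. In libraries 4 to 8 alone all 6 calls held, with log2 fold changes of the same sign. In libraries 1 to 3 alone, with 3 against 3, only Vav1 passed, and the edgeR adjusted p was 0.0502 for Lat, 0.116 for Skap1, 0.399 for Fyb, 0.924 for Zap70 and 0.929 for Lck.

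**Figure D2:**
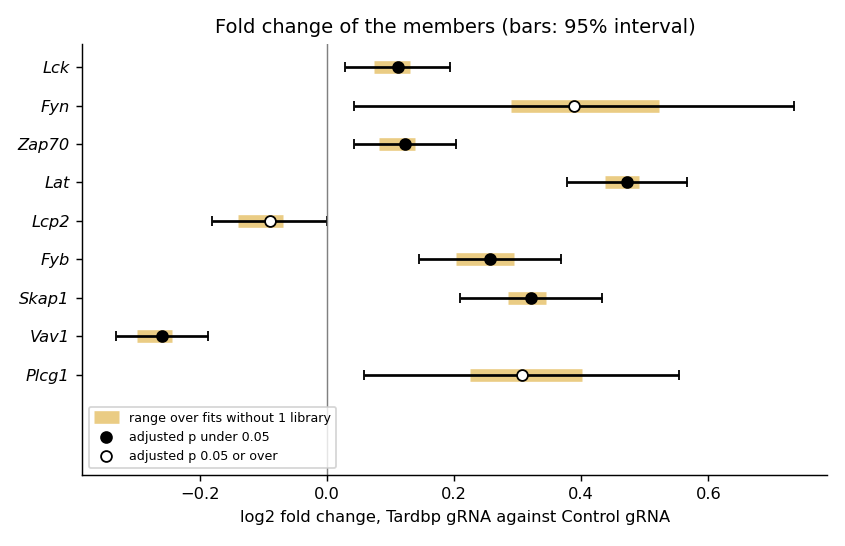
log2 fold change of each member, Tardbp gRNA against Control gRNA (x axis), with its 95% interval as a black bar and the range over 16 fits that each left out 1 library as a yellow band. Filled points passed an adjusted p of 0.05 and open points did not. Lat, Skap1, Fyb and Vav1 kept their call in every such fit.

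Most member exons were spliced in almost always, in both groups. Of the members' 146 core exons, 142 had a Psi over 0.95 in Control gRNA, and 144 differed by at most 2.5 percentage points between groups. Psi was deposited as 1 value per group of libraries, so it carries no error here. The study kept only events above a minimum number of reads, and the number behind each single value was not used here. The 2 exons past a difference of 0.1 were 1.37% of the members' core exons, beside 0.932% of 98533 core exons in the series. Over nodes of all kinds they were 1.1%, beside 4.7%.

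In Control gRNA the Vav1 exon stood at a Psi of 0.976, and in Tardbp gRNA at 0.544, a difference of -43.2 percentage points. Its neighbours were at 0.998 and 0.996 (the exon before) and at 0.997 and 0.99 (the exon after), far closer between the groups than the exon itself. Of 72074 core exons with a Psi over 0.95 in Control gRNA, 30 differed by more than 0.1 (0.0416%), and for none of them was Psi lower by more than for this one. Over core exons of any starting level, 21 were lower by more. The next largest difference among the Vav1 core exons was at node 15, from 0.996 to 0.98.

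The Fyb exon, the one the study describes, had a Psi of 0.0587 with the control guide and of 0.28 with the Tardbp guide. By Psi, transcripts without the insertion were therefore the main ones in both groups, while ADAP protein was not measured here. The difference was 22.1 percentage points, and 102 core exons of the series were higher by more. The other 15 core exons of Fyb all had a Psi over 0.95 in Control gRNA.

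**Figure D3:**
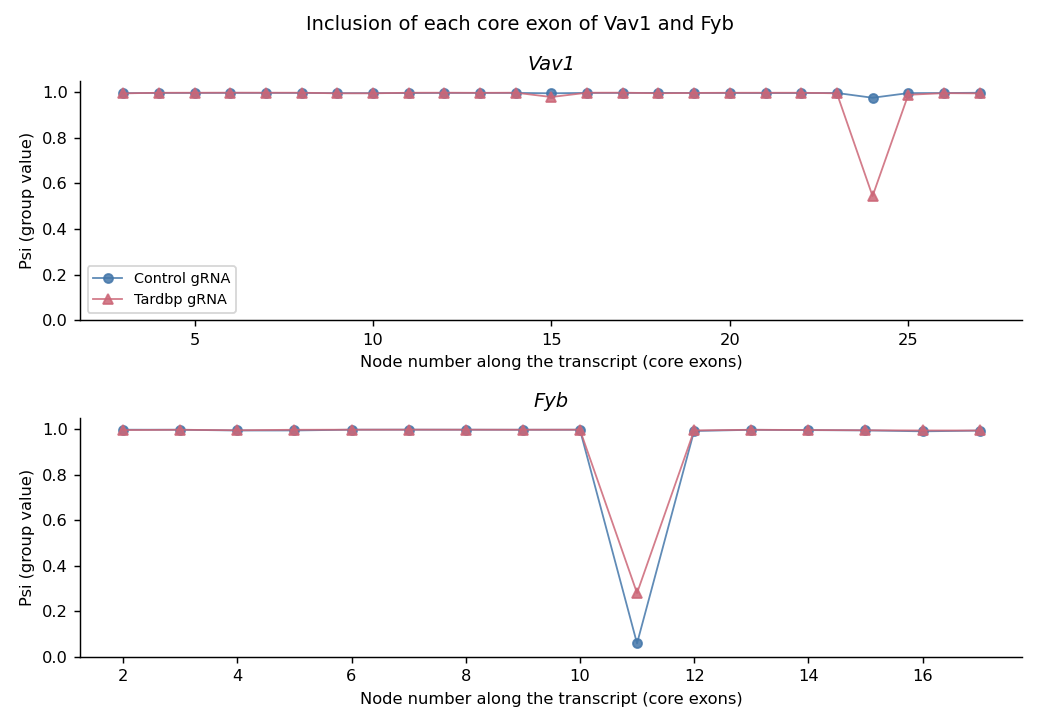
Psi (y axis, 0 to 1) of each core exon of Vav1 (top) and Fyb (bottom), by node number along the transcript, as the authors' group values for Control gRNA (blue circles) and Tardbp gRNA (red triangles). The lines join exons of a group. At node 24 Vav1 is at 0.976 and 0.544, and at node 11 Fyb is at 0.0587 and 0.28, while their neighbours lie close to 1 in both groups.

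By Psi, the T cell form of the mutually exclusive Fyn exons was the main one, while the transcript counts described further on gave the brain form a larger share. The exon of that form had Psi values of 0.944 (Control gRNA) and 0.922 (Tardbp gRNA), and the exon of the brain form 0.0231 and 0.0368. Larger differences in Fyn were at its 3′ ends, where 1 end node went from 0.425 to 0.356 and another from 0.377 to 0.434. Skap1 had a cassette exon of 48 bases at chr11:96723350-96723397, included at 0.196 and 0.208. In Lck, the only nodes past 5 percentage points were a pair of start nodes of the proximal promoter region, at 0.478 and 0.533 and at 0.522 and 0.467. Zap70 differed least, by at most 0.086 percentage points at any of its 11 nodes, and Lat and Lcp2 by at most 1.31 and 3.25 points.

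To give the Vav1 exon an error, its inclusion was rebuilt in each library from the transcript counts, as the length-scaled share of transcripts that hold the exon. Vav1-201 and Vav1-204 hold it, and Vav1-203, which lacks exactly these 117 coding bases (2418 against 2535 in Vav1-201), does not. Inclusion so rebuilt ranged from 50% to 72.9% in Control gRNA (median 57.7%) and from 19.4% to 71.1% in Tardbp gRNA (median 41%). In 5 of 8 Tardbp gRNA libraries it lay below every control, but library 5 was nearly as high as the highest control. The lowest inclusion was in Tardbp gRNA library 6, where Vav1-204 was at 0 CPM. The difference of the means was -16.8 percentage points (SE 6.43, n = 8 per group). An exact two-sided permutation test of it alone gave p = 0.0222, and the limma adjusted p over 13849 rebuilt exons was 0.536. The Vav1 exon was singled out by its Psi difference in these same libraries, so the p of that single test is not independent support. None of the members' 12 rebuilt exons was called, beside 0.0361% of all rebuilt exons (limma). An unadjusted limma p under 0.05 was seen for 5 of the 12, of which only the Vav1 exon differed by more than 0.1. Among these 5 were Skap1 nodes 12 and 13, which had the same value in every library and are 1 measurement.

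The rebuilt levels and Psi were far apart. In Control gRNA the Vav1 exon was at 59.3% by transcript counts and at 97.6% by Psi, and the brain form of the Fyn exon at 22.5% ± 15.7 (SD, n = 8) and 2.31%. For the Fyb exon the transcript counts gave 97.4% ± 0.475 in Control gRNA and 98.1% ± 0.372 in Tardbp gRNA, and Psi gave 5.88% and 28%. Only 2 annotated Fyb transcripts span that exon, Fyb-201, which holds it, and Fyb-208, a fragment of 547 coding bases which does not, so these counts cannot show skipping in a full-length Fyb transcript. The Fyb shift therefore has no per-library value in the data analysed here. Psi values of single samples for this exon are given with the study's figures and were not used. For the Vav1 exon both readouts, which come from the same libraries, were lower in Tardbp gRNA. The rebuilt difference for the Fyb exon was 0.758 percentage points (limma adjusted p = 0.248). It sets Fyb-201 against a fragment only, so its direction cannot be read beside that of Psi.

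**Figure D4:**
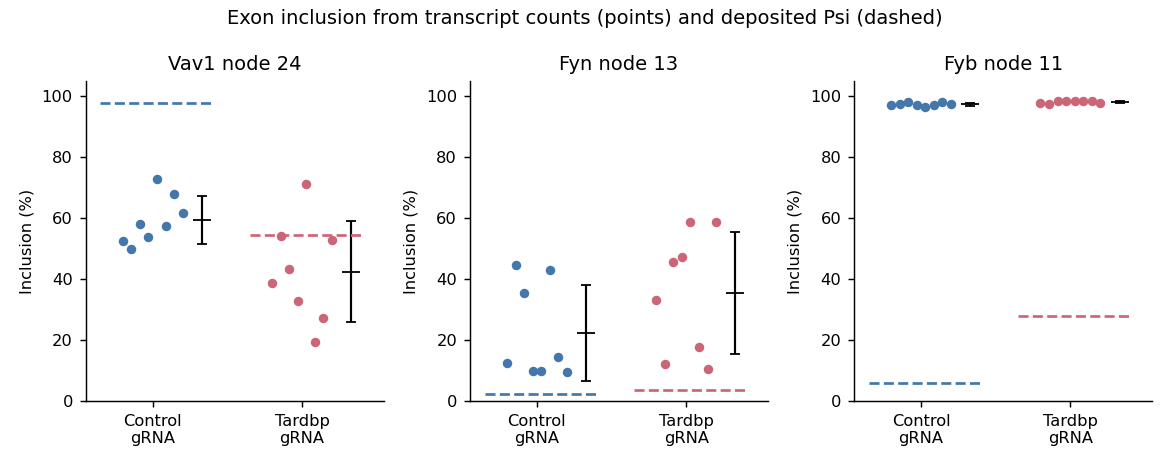
Inclusion in percent (y axis, from 0) of the Vav1 exon (node 24), the brain form Fyn exon (node 13) and the Fyb exon (node 11). Points are libraries, from transcript counts, with mean and SD in black, and dashed lines are the authors' Psi per group. The Vav1 points of the groups overlap. For Vav1 and Fyb the Control gRNA points lie far from the dashed line. For Fyn they lie above it, from 9.71% to 44.6% beside 2.31%.

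Transcript shares were compared for 43 member transcripts in all. None passed an adjusted p of 0.05 with a difference over 0.1 (limma), beside 0.63% of 32701 transcripts in the series. At an unadjusted limma p under 0.05 there were 10, and at an exact permutation p under 0.05 there were 16, of which 1 each differed by more than 0.1. By both tests this was Vav1-203, the form without the exon, at 26.3% to 48.7% of Vav1 counts in Control gRNA (median 41.3%) and 28% to 79.3% in Tardbp gRNA (median 57.9%). The difference was 16.9 percentage points, with an exact permutation p = 0.0214 and a limma adjusted p = 0.171. Vav1-203 is the only one of the 3 transcripts spanning the exon that lacks it. Its share therefore repeats the rebuilt inclusion from the same counts and is not a second result. Vav1-201 fell as a transcript, from 55.8 ± 16.2 to 29.4 ± 12.9 CPM (SD, n = 8, log2 fold change -0.92, edgeR adjusted p = 0.0284), a call that was lost without the filter on low counts and in the libraries numbered 4 to 8 alone. Vav1-204, which also holds the exon, went from 108.9 ± 28.7 to 66.7 ± 33.5 CPM and did not pass (edgeR adjusted p = 0.572). Its share went from 39.9% to 30% (limma adjusted p = 0.49). In Tardbp gRNA replicate 6 it was at 0 CPM, and Vav1-203 had its highest share there.

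Without the minimum on size, 5 member shares passed an adjusted p of 0.05 (limma), as did 4.45% of all shares. They were Fyb-206, a noncoding transcript, from 12.4% to 9.02% of Fyb counts (adjusted p = 0.0116), and Lck-207, which retains an intron, from 0.801% to 1.48% of Lck counts (adjusted p = 0.0096). The other 3 were Skap1-203 from 10.5% to 8.75%, Skap1-205 from 2.45% to 3.18% and Skap1-206 from 3.66% to 5.04% of Skap1 counts. The main transcripts did not pass. Zap70-201 held 99.6% of its gene's counts in Control gRNA, Lcp2-201 98.1%, Lat-201 86.5% and Fyb-201 80.6%. Skap1-201 and Skap1-204 held 45.3% and 33.1%, and Lat-206 held 8.89%.

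Lck is transcribed from a distal and a proximal promoter, and Lck-202 begins at the distal one. Its share of Lck counts ranged from 58.6% to 86.7% in Control gRNA (median 61.8%) and from 50.6% to 66.2% in Tardbp gRNA (median 60.8%). The proximal transcripts Lck-208 and Lck-201 had means of 19.7% and 13.4% in Control gRNA and 22.4% and 15.1% in Tardbp gRNA. The shares of all 3 overlapped between the groups, with limma adjusted p of 0.531, 0.775 and 0.433. Control gRNA replicate 8 stood alone, with Lck-208 at 0.0545% and Lck-202 at 86.7%.

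The Fyn forms varied within each group more than between the groups. Fyn-201, the T cell form, ranged from 29.9% to 89% of Fyn counts in Control gRNA (median 85.4%) and from 25.1% to 88.7% in Tardbp gRNA (median 53.2%). Fyn-202, the brain form, ranged from 9.78% to 47.3% (median 13.5%) and from 10.4% to 62.2% (median 41.3%). The differences of the means were -13.5 and 13.6 percentage points, with limma adjusted p of 0.633 and 0.522.

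As levels, 12 of the 44 member transcripts tested were called higher and 1 lower (edgeR), beside 8.5% and 8.14% of 40897 transcripts, or 16.6% in all. Of the 12, Skap1 had 6, Lat 4, and Fyb and Lck 1 each. Lat-201, the main LAT transcript, went from 299.1 ± 25.2 to 401.3 ± 25.4 CPM without overlap (log2 fold change 0.42, edgeR adjusted p = 4.29e-05). Lat-202, a retained-intron transcript, went from 13.5 ± 2.21 to 23.2 ± 3.41 CPM, and Skap1-206, a short coding transcript, from 12.7 ± 1.49 to 21.2 ± 3.24 CPM, both without overlap. Groups without overlap were seen in 5.77% of all transcripts. Fyb-201 had a log2 fold change of 0.24 (adjusted p = 0.0173) and Skap1-201 one of 0.29 (adjusted p = 0.0056). Skap1-201 lost its call in the libraries numbered 4 to 8 alone.

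Close relatives of the members were mostly low in these cells. Of 15 paralogs 13 were tested, Clnk had a mean of 0.113 CPM in Control gRNA, beside 0.0884 CPM in Tardbp gRNA, and Fyb2 had no counts. Plcg2, the B cell counterpart of Plcg1, was the one called lower, from 30.1 ± 4.17 to 19 ± 4.09 CPM (log2 fold change -0.67, edgeR adjusted p = 3.08e-04). The Src family kinases Fgr and Lyn were called higher, from 8.83 to 13.7 CPM and from 4.18 to 5.67 CPM (log2 fold changes 0.64 and 0.44, adjusted p = 0.00341 and 0.0493). Calls made up 23.1% of the paralogs tested, below the 46.7% of all genes. The other 10 did not pass, among them Skap2 at 18.8 and 17.1 CPM, Vav3 at 6.15 and 7.32, Vav2 at 3.98 and 3.46, and Blk, Yes1, Syk, Lat2, Src and Blnk below 3 CPM in both groups.

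Among partners that act beside the members, 8 of 20 were called higher and 4 lower, with a median log2 fold change of 0.24. Higher were Unc119, an activator of Lck and Fyn (log2 fold change 0.54), Tespa1, a scaffold in thymocyte signalling (0.52), and Sh2d1a, the SAP adaptor that recruits Fyn (0.51). Lower were Themis, a binding partner of Grb2 (-0.51, from 221.3 ± 23.2 to 155.7 ± 8.37 CPM), Map4k1, the kinase HPK1 that restrains SLP-76 (-0.45), and the scavenger receptor Cd6 (-0.26). Of the partners named here, only Themis and Map4k1 did not overlap between the groups.

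In the list around ADAP, which includes actin regulators, Rap1 signalling and integrin, 6 of 21 were called higher and 6 lower, with a median of -0.04. Higher were Evl, an actin polymerase of the Ena/VASP family that binds ADAP (0.69, from 122.6 ± 16.3 to 197.3 ± 16.8 CPM, no overlap), Rapgef1, an exchange factor for Rap1 (0.33), and Mob1b (0.26). Lower were Itgb2, the beta chain of LFA-1 (-0.51, from 709.8 ± 72 to 498.8 ± 32.9 CPM, no overlap), talin Tln1 (-0.46) and Mob1a (-0.39). The LFA-1 alpha chain Itgal was also called lower (log2 fold change -0.18, edgeR adjusted p = 0.0464).

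Of the negative regulators, 6 of 21 were called higher and 4 lower, with a median of 0.01. Higher were Lax1, a membrane adaptor that dampens receptor signals (0.79, from 87 ± 14.9 to 150.6 ± 8.01 CPM, no overlap), Dgkz, which removes diacylglycerol (0.35), and Dok1 (0.32, no overlap). Lower were Pag1, the membrane anchor of Csk (-0.40), the phosphatase Ptpn7 (-0.32, no overlap) and the ubiquitin ligase Cbl (-0.23).

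Of the genes for calcium and lipid second messengers, 3 of 17 were called higher and 9 lower, with a median of -0.22. Higher were the inositol trisphosphate receptor Itpr2 (0.92) and the calcium channels Orai1 (0.78) and Orai2 (0.26). Lower were another inositol trisphosphate receptor, Itpr1 (-0.74, from 47.3 ± 7.32 to 28.4 ± 3.71 CPM), the lipid phosphatase Inpp5d (-0.43) and the lipid kinase subunit Pik3cg (-0.40, no overlap). Calls made up 60% of the partners, 57.1% of the ADAP list, 47.6% of the negative regulators and 70.6% of the second messenger list, beside the 46.7% of all genes.

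**Figure D5:**
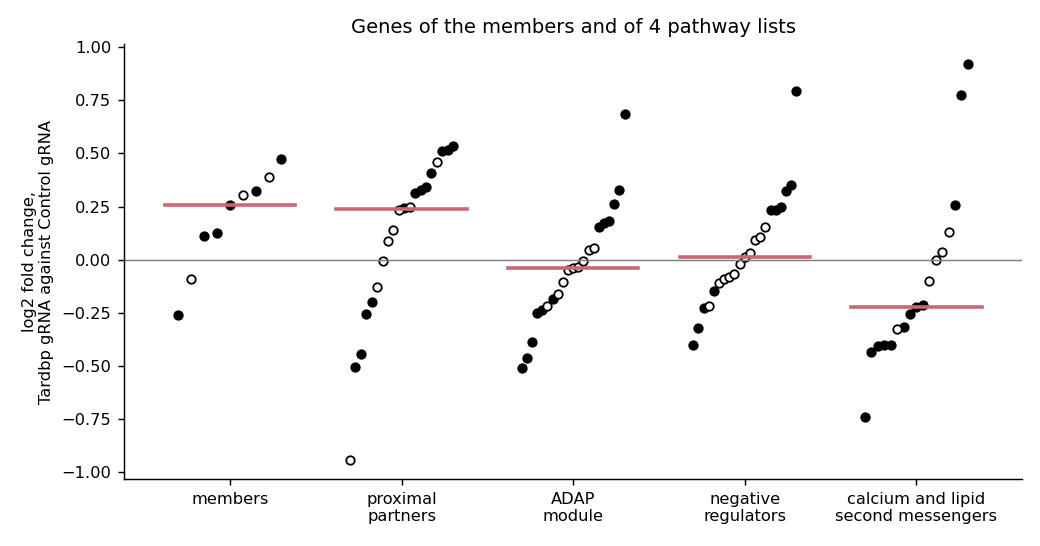
log2 fold change, Tardbp gRNA against Control gRNA (y axis), of the members and of the genes of 4 pathway lists, sorted within each list. Filled points passed an adjusted p of 0.05, open points did not, and red lines are medians, from 0.26 for the members to -0.22 for the second messenger list. Each list holds genes called in both directions.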

How the data were processed

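RNA of sorted CD8+ T cells from 8 Control gRNA and 8 Tardbp gRNA libraries had been made into SMART-Seq v4 and Nextera XT libraries and read as pairs. Per the labels, the authors aligned reads with HISAT2 2.1.0 to mm10 and used SAMtools 1.9 and StringTie 2.1.0. The deposited estimated counts, per gene and per transcript, were whole numbers without normalization and equalled the sum of the transcripts for all 55536 annotated genes. Psi was deposited as a fraction per node and group, from Whippet run by the authors, and the group of each Psi column was taken from the study's text. The authors' difference and probability columns were not used. Also not used were 10 columns of each count table that match no sample here, and lines that name no gene (0.0836 to 0.132% of counts). The study's text gives 8 recipient mice, 8 samples per group and a stimulation before sequencing that it does not detail. Whether the groups shared mice is not stated, and p-values measure the spread between libraries. No library pair of 120 had identical counts.

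Names, coordinates and exon sequences came from GENCODE M21 (GRCm38, the same assembly as mm10). The quasi-likelihood test of edgeR 4.0.16, in R 4.3.3, was used for genes and transcripts (TMM, filterByExpr by group with minimum count 10, total 15 and proportion 0.7), two-sided, over all 16 libraries without covariate. Calls had a p under 0.05 after Benjamini-Hochberg adjustment over all features. CPM were TMM-scaled, with a prior count of 2 on the log2 scale. Intervals of 95% are the estimate ± 1.96 SE. Shares, over kept transcripts of genes with at least 2, and rebuilt inclusion, for exons with a mean count over 50, were tested with limma 3.58.1, where a call also needed a difference over 0.1. A limma test of Psi was not run, as Psi is given per group. Single values had an exact permutation test. DESeq2 1.42.0 was an alternative. Fits were tested on simulated data. The members and lists were chosen with earlier results of these data known. Named were all members, their transcripts with a mean share of at least 5%, exons with a Psi difference over 0.1 and the Fyb exon, paralogs, and the 3 highest and 3 lowest called genes of each other list. Others named, such as Itgal, Lat-202, Lck-207, Skap1-205, Skap1-206 and the Fyn, Skap1 and Lck nodes, were chosen after their values were seen. Leaving out each library in turn, and leaving out exons with the same inclusion in all libraries, were added after the data were seen.

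Counts are reads, not molecules, so PCR copies were counted. Lck-201, Lck-202 and Lck-208, the Vav1 transcripts and the Fyn transcripts share most of their exons, so the division of reads among them is the authors' estimate.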

Additional observations from a re-analysis of the deposited data

Results flagged for a closer look

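Libraries were examined for values far from the other 7 of their group, over total count, the members' CPM, the named transcript shares and the rebuilt Vav1 and Fyb exons. Of 60 such groups of 8 values, 7 had a library set apart, and chance gives about 1 in 20. Lat in Tardbp gRNA replicate 3 was at 546.3 CPM, with the next at 476.6. Fyn in Control gRNA replicate 2 was at 360.7 CPM, with the next at 237.

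Control gRNA replicate 8 was set apart in 3 shares. Lck-202 was at 86.67% there, with the next at 69.95%, Lck-208 at 0.05449%, with the next at 14.3%, and Lcp2-201 at 93.53%, with the next at 97.48%. In Tardbp gRNA, Fyb-201 was at 76.57% in replicate 3, with the next at 80.94%, and Skap1-204 at 35.77% in replicate 8, with the next at 32.23%.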

How the results depend on the processing

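Over 8 other settings of the gene test, every member kept the sign of its fold change, from 0.0152 (Zap70) to 0.81 (Fyn) for those above 0 and from -0.31 (Vav1) to -0.06 (Lcp2) below 0. In the libraries numbered 1 to 3 alone, 1696 genes were called in place of 7783, and Lck (0.0154), Zap70 (0.0152), Lat (0.395), Fyb (0.164) and Skap1 (0.264) did not pass, with 6 libraries in the fit. The fit that took log2 RNA concentration into account called 2697 genes, and Lck (0.0831), Zap70 (0.0839) and Skap1 (0.298) did not pass. Concentration did not overlap between the groups, so that fit cannot separate it from the guide. With the letter M or F, deposited under the header sex, as a covariate, Lck (0.112) did not pass. Both letters occur in both groups, F more often in Control gRNA and M more often in Tardbp gRNA. Plcg1 passed with DESeq2 (0.304) and with a replicate block (0.32). Leaving out 1 library gave 7265 to 7734 called genes, and log2 fold changes of 0.0739 to 0.131 for Lck, 0.0815 to 0.138 for Zap70, 0.29 to 0.523 for Fyn, 0.225 to 0.402 for Plcg1 and -0.14 to -0.0687 for Lcp2.
For transcripts, the libraries numbered 4 to 8 alone gave 4268 calls in place of 6805. Of the named transcripts, Skap1-203 (main 0.0163) turned to -0.0154 with DESeq2 size factors and to -0.0124 in libraries 4 to 8, and Fyn-201 to -0.212 there. Shares gave 394 calls with length-scaled counts, 115 with a replicate block and 87 in libraries 4 to 8, in place of 206. The difference in share of Skap1-201 turned to -0.00363 with length scaling and to -0.00758 in libraries 4 to 8, and that of Lat-201 to 0.000826. None of these had passed the test. Rebuilt core exons gave 2 calls without length scaling, 0 with a replicate block, 3 in libraries 4 to 8 and 6 without exons of constant inclusion, in place of 5. The Vav1 exon stayed between -0.168 and -0.22 and did not pass in any of them. Libraries with the same number did not deviate together (correlations from -0.005 to 0.16, 2 of 8 over 0.1, 2 of 8 best with their own number), and the block is given only here. Where a cause is not named, it was not tested.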
